A study of Mus musculus with 62 samples.

Results

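The hearts compared here came from mice injected with a melanoma cell line that causes cachexia, the wasting of body weight and muscle that accompanies many cancers. The comparison sets hearts collected 8 weeks after injection (7 libraries) against hearts collected 6 weeks after injection (5 libraries), 12 of the 62 libraries of the series. They were chosen by their labelled arm and week, and the comparison was repeated without replicate 3 of week 8. It addresses what changes in the heart late in the wasting disease, within the arm that wastes.

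The study injected female mice, aged 2 months per the labels, with cachectic melanoma cells (CAC), with non-cachectic melanoma cells (NCAC) or with a mock injection (Con), and sequenced heart RNA at weeks 2, 4, 6 and 8. Apart from CAC week 8, each arm and week has 5 libraries. The series' design text calls the animals NCI Ath/nude mice, which are immunodeficient and lack a normal thymus, whereas the sample labels give the strain as C57BL6/J. The 10 NCAC and 10 Con libraries of weeks 6 and 8 serve here as the background of the same weeks. No label places several libraries in one animal or gives a collection day, so a p-value here speaks of the spread among these libraries.

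The working heart is mostly cardiomyocyte RNA. Adult mouse cardiomyocytes contract with the fast alpha myosin heavy chain and adult troponins, and make most of their ATP from fatty acids through the citrate cycle and the respiratory chain. In cancer cachexia, cytokines of the interleukin-6 family signal through JAK and STAT3 and raise acute-phase genes in many organs, and the heart can lose mass. Acute-phase proteins are secreted plasma proteins whose synthesis rises in inflammation.

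The 12 libraries carried the markers of heart muscle. The 14 cardiomyocyte markers summed to between 40152 and 45265 TPM (a level per transcript length, scaled to the same total in every library) at week 6 and to between 28202 and 38813 TPM at week 8, and the ranges did not overlap. Markers of lung and thymus summed to at most 1.25 TPM, and 4 of those 10 genes were at 0 in every one of the 12 libraries. In bulk tissue, fewer cells of a type and less RNA per cell cannot be told apart. Mitochondrially encoded genes took 49.3% to 53.2% of TPM at week 6 and 50.1% to 55.7% at week 8. Their share was 57.5% to 60.9% in Con week 6 and 52.9% to 61.1% in Con week 8. In NCAC it was 54.1% to 60.2% at week 6 and 56.0% to 58.7% at week 8. A larger share leaves less TPM for all other genes. Levels set against Con or NCAC below are not corrected for this, and its part in them was not tested. Read depth is unknown, since TPM keeps none.

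Replicate 3 of week 8 stood apart. On the first principal component of the 12 libraries, which held 39.5% of the variance, it lay at 41.7 while the other 11 lay between -18.4 and 19.8. It had the highest mitochondrially encoded share (55.7%), and its erythroid and platelet markers, mostly haemoglobin, summed to 33071 TPM, against 203 to 6674 TPM in the other 6 hearts of week 8 and 799 to 2383 TPM at week 6. Its summed macrophage markers (572 TPM) and acute-phase genes (433 TPM) were the lowest of the 7. The part of blood RNA in setting it apart was not tested. The results below are given with it, without it or both. The library was singled out on its own expression values, so p-values without it are too small.

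With all 12 hearts, no gene among 12110 tested passed an adjusted p of 0.05 in either direction (limma, Benjamini-Hochberg, 0% called higher and 0% called lower), and the smallest adjusted p was 0.212. Genes with an unadjusted p under 0.05 were 673 higher (5.56%) and 448 lower (3.70%) at week 8. The 7 hearts of week 8 lay wholly above the 5 of week 6 for 30 genes (0.248%) and wholly below them for 85 genes (0.702%). The median log2 difference over all genes tested was 0.05, and 67.1% of genes lay on the higher side.

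Without replicate 3, 346 genes rose (2.86% of those tested) and 118 fell (0.974%) between weeks 6 and 8. At an unadjusted p under 0.05 there were 2565 higher (21.2%) and 577 lower (4.76%), and the ranges lay apart for 403 higher (3.33%) and 154 lower (1.27%). All 464 lay on the same side of 0 with the 12 hearts, and 305 of them had an unadjusted p under 0.05 there. Among the 346 that rose, replicate 3 lay below every week 6 heart for 225, within their range for 104 and above them for 17. Among the 118 that fell, it lay below every week 6 heart for 48, within their range for 51 and above them for 19. These calls hang on few libraries: leaving out 1 further heart gave no call in 5 of 11 cases (week 6 replicates 2, 4 and 5, week 8 replicates 2 and 4), and between 53 and 640 rises and 22 and 138 falls in the other 6. In every one of those fits all 464 genes kept their side of 0. The genes were picked from libraries that these fits and the fit on 12 hearts share, so keeping their side is no measure of stability. The balance of the calls also moved with the scaling. After rescaling by the median of ratios 232 genes rose and 400 fell, so that 36.7% of calls were rises in place of 74.6%, and with mitochondrially encoded and haemoglobin genes removed before scaling 1031 rose and 154 fell among the 13162 genes that then passed the filter (995 and 153 among the 12093 of them tested above).

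The same weeks in the other arms gave a background. Con hearts had no gene called between weeks 6 and 8 (limma on the 32 libraries of weeks 6 and 8, 0% of 12418), with 1258 higher (10.1%) and 113 lower (0.910%) at an unadjusted p under 0.05. NCAC hearts had no gene called either, with 120 higher (0.966%) and 97 lower (0.781%) at that unadjusted p. The change from week 6 to week 8 in CAC was then tested against the change in each other arm. Against Con, 2 genes fell further in CAC (0.0161%) and none rose further, with 681 lower (5.48%) and 173 higher (1.39%) at an unadjusted p under 0.05. Against NCAC, 1 gene fell further (0.00805%) and none rose further, with 503 lower (4.05%) and 682 higher (5.49%) at that unadjusted p. The 3 genes are Kcnk3, Myh6 and Tnnc1, described below.

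**Figure D1:**
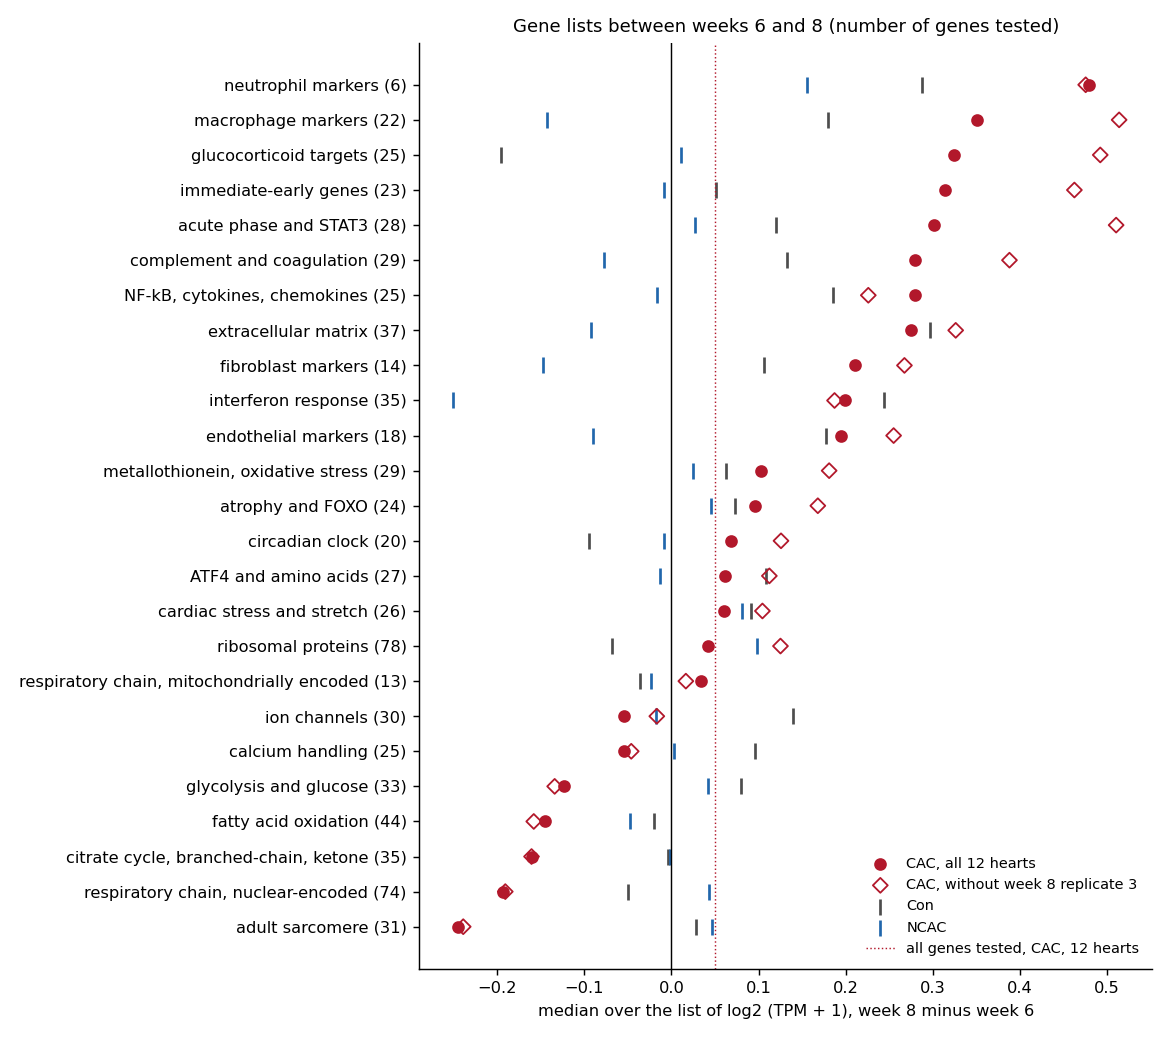
Median log2 (TPM + 1) difference between weeks 6 and 8 (horizontal axis) over 25 gene lists (vertical axis, number of genes tested in brackets), for CAC with all 12 hearts (filled circles), CAC without week 8 replicate 3 (open diamonds), Con (grey ticks) and NCAC (blue ticks). The plotted lists were picked for description, so the order holds among them alone: adult sarcomere genes are lowest (-0.24 with 12 hearts) and the nuclear-encoded respiratory chain next (-0.19), while neutrophil and macrophage markers are highest (0.48 and 0.35); the 8 erythroid and platelet markers, not plotted, have a median of 0.64.

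Most contractile genes of the adult heart lay on the lower side at week 8, and none passed the test with all 12 hearts. Of 31 adult sarcomere genes tested, 25 lay on the lower side with all 12 hearts (32.9% of all genes) and 21 had an unadjusted p under 0.05, all lower (3.70% of all genes). For 5 of them, Myl3, Tnni3, Tnnc1, Actn2 and Ldb3, no heart of week 8 reached any heart of week 6 (0.702% of all genes). The median of the list was -0.24, beside 0.05 over all genes. Without replicate 3, 13 fell (0.974% of all genes) and none rose, with the median again at -0.24. After rescaling 20 fell, beside 400 of all 12110 genes. The 13 that fell before rescaling were Myh6, Myl2, Myl3, Tnni3, Tnnc1, Actc1, Actn2, Ldb3, Tmod1, Ckm, Ckmt2, Mb and Smyd1.

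The promoters of 6 contractile genes were searched, and the 3 that held a match to the muscle motif named next are shown so that its place can be compared. They are the 250 bases before the RefSeq transcript start on GRCm38.p6, with each match to the MCAT element (CATTCC on either strand), a short sequence bound by TEAD factors in muscle promoters, in capitals.
Tnnc1, chr14:31208062-31208311, plus strand: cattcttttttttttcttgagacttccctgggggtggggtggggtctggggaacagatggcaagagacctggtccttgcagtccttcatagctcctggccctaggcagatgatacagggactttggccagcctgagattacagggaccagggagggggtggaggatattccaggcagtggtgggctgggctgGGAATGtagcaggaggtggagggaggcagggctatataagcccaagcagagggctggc
Myl3, chr9:110763428-110763677, plus strand: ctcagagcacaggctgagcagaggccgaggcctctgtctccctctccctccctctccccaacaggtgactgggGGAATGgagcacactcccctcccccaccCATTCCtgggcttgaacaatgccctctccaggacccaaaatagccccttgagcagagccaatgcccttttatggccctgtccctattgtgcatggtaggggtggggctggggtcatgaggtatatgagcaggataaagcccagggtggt
Myh6, chr14:54966608-54966857, minus strand: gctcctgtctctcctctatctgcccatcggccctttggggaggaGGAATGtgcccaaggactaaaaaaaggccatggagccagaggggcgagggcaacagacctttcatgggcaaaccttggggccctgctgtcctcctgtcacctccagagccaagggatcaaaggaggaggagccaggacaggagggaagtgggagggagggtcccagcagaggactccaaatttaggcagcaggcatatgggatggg
Tnnc1 held 1 match starting 58 bases before the transcript start, Myl3 held 2 at 177 and 149 bases, and Myh6 held 1 at 206 bases. Tnni3, Actn2 and Ldb3 held none in this window. Only the first listed promoter of each gene symbol was searched, so any other start of a gene was not examined. Among the 26 adult sarcomere genes with a promoter in the table, 7 held a match (26.9%), against 12.6% of all 27025 promoters and 10.5% of the 9118 tested genes with one. The other motifs searched in the same window, on both strands, were TTCNNNGAA (STAT), AAGGTCA (oestrogen-related receptors) and the NRF1 motif. TTCNNNGAA was in 4 of 24 acute-phase promoters (16.7%), 7.18% of all promoters and 6.09% of those of genes tested. AAGGTCA was in 5 of 60 nuclear-encoded respiratory chain promoters (8.33%), 4.05% of all and 2.72% of genes tested, and the NRF1 motif in 4 of those 60 (6.67%), 1.89% and 4.21%. The other pairs of these motifs with the sarcomere, respiratory chain, acute-phase and citrate cycle lists held shares of 0% to 16.7%, the last for the MCAT element in 4 of 24 acute-phase promoters. Every NRF1 share here is for 1 of 3 forms of that motif searched in turn. The share moved with the form, and the shares of the other forms are not given. The NRF1 shares thus depend on the form chosen, and no conclusion is drawn from them. A match describes the letters and is no evidence of binding.

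Myh6, which encodes the alpha myosin heavy chain, the main motor of the adult mouse ventricle, had 5352, 7446, 7589, 7730 and 7881 TPM in the 5 hearts of week 6. At week 8 the lowest of 7 hearts had 3419, the median 4330 and the highest 5634 TPM. The groups overlapped only through the lowest heart of week 6, replicate 3, and the highest of week 8, which was also replicate 3. The log2 difference was -0.70 ± 0.13 (SE) with 12 hearts (limma adjusted p = 0.212), and Myh6 fell by 0.76 without replicate 3 (adjusted p = 0.0287). Over the same weeks Myh6 went from 5678 to 6450 TPM in Con at week 6 to 5797 to 8033 TPM at week 8, and from 5966 to 6923 TPM in NCAC to 6355 to 7304 TPM. The change in CAC was lower than the change in Con by 0.86 ± 0.15 on the log2 scale (adjusted p = 0.0171, 32 libraries), and the difference from the change in NCAC was -0.77 (adjusted p = 0.0915). The call against Con was lost when any of 7 libraries was left out, at adjusted p up to 0.0648: CAC week 6 replicates 1, 4 and 5, Con week 6 replicates 1 and 3, and Con week 8 replicates 2 and 4. It was also lost after rescaling (adjusted p = 0.104), without the filter on low values (0.111), with a replicate block (0.0555) and in the fit on all 62 libraries (0.999).

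Tnnc1, cardiac troponin C, which binds the calcium that switches on contraction, had 3117, 3383, 3458, 3504 and 3691 TPM at week 6. At week 8 its lowest value was 2391, its median 2597 and its highest 2883 TPM, so that every heart of week 8 lay below every heart of week 6. The log2 difference was -0.38 ± 0.07 (adjusted p = 0.212), and Tnnc1 fell by 0.40 without replicate 3 (adjusted p = 0.0276). In NCAC the level was 2808 to 3169 TPM at week 6 and 3008 to 3241 TPM at week 8. The CAC hearts of week 6 lay above the 2869 to 3027 TPM of Con week 6, and those of week 8 overlapped the 2700 to 3226 TPM of Con week 8. The change in CAC was lower than that in NCAC by 0.45 ± 0.08 (adjusted p = 0.0484), and the difference from the change in Con was -0.39 (adjusted p = 0.0643). The call against NCAC held in 6 of 22 fits that left out 1 library (without CAC week 6 replicate 3, CAC week 8 replicates 2, 3, 5 and 6, or NCAC week 6 replicate 2) and was lost in the other 16, with adjusted p up to 0.194. It was also lost after rescaling (0.0797), without the filter (0.176), with a replicate block (0.0905) and on all 62 libraries.

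Tnni3, cardiac troponin I, the inhibitory subunit, had 2920, 3038, 3085, 3086 and 3158 TPM at week 6, and a lowest value of 2238, a median of 2502 and a highest of 2616 TPM at week 8. Its log2 difference was -0.32 (adjusted p = 0.212), and it fell by 0.33 without replicate 3 (adjusted p = 0.0276). Replicate 3 sat with its group here, at 2574 TPM. Myl3, the ventricular essential light chain, ran from 3538 to 4273 TPM at week 6 and from 2348 to 3475 TPM at week 8. In Con it ran from 3003 to 3580 TPM at week 6 and from 2587 to 3614 TPM at week 8. All CAC hearts of week 6 but the lowest thus lay above Con week 6, and those of week 8 overlapped Con week 8. Actn2, the alpha-actinin of the Z-disc, ran from 721 to 968 TPM and from 608 to 700 TPM. Week 6 was itself high in TPM for Actn2, as for Tnnc1. The 5 hearts lay above the 627 to 709 TPM of Con week 6 and the 616 to 709 TPM of NCAC week 6. The 7 hearts of week 8 overlapped the 648 to 819 TPM of Con week 8. At week 6 the mitochondrially encoded share was lower in CAC than in both other arms, which leaves more TPM for other genes. Its part in the levels of Tnnc1, Myl3 and Actn2 was not tested.

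**Figure D2:**
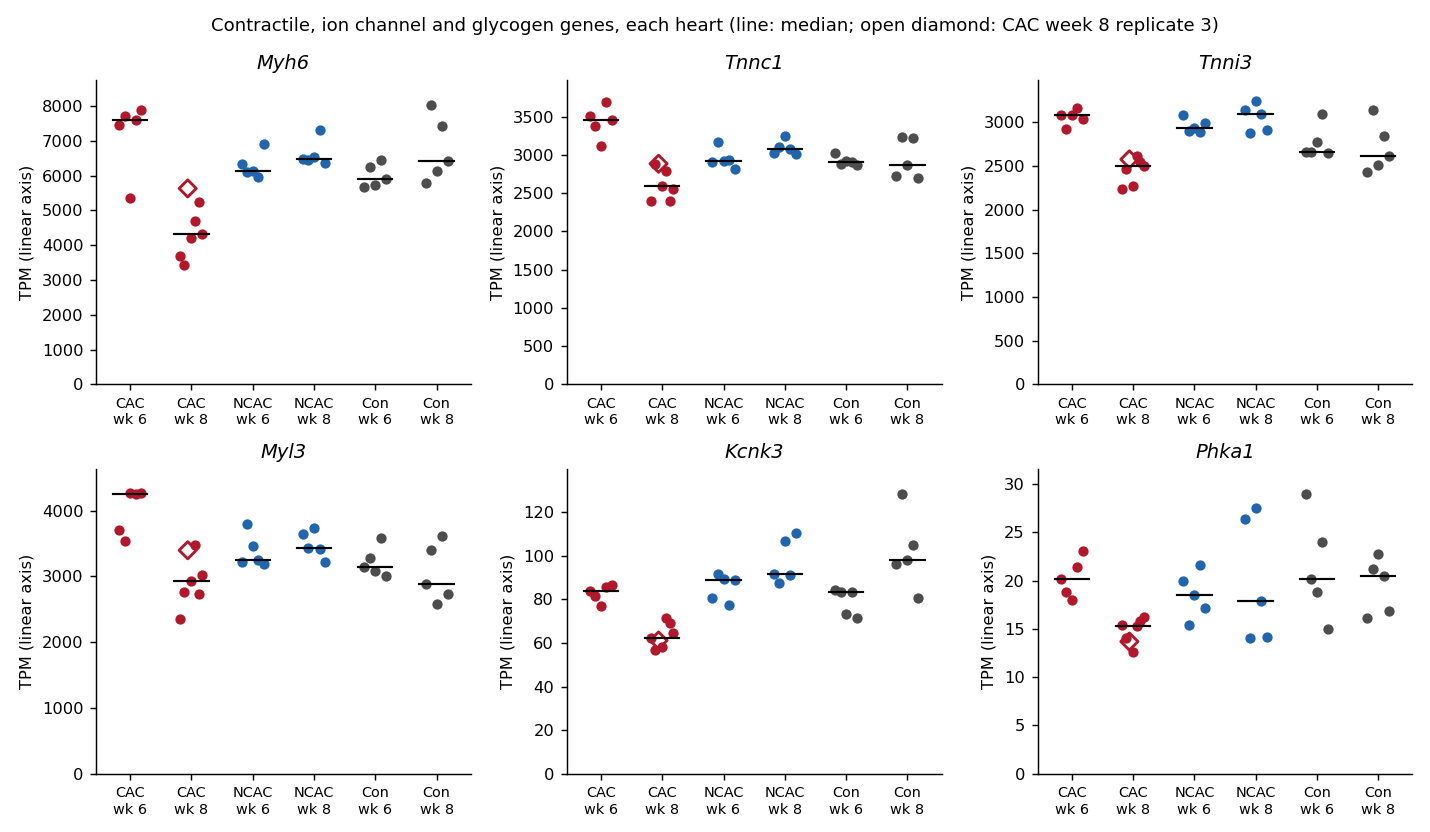
TPM (linear axis from 0) of Myh6, Tnnc1, Tnni3, Myl3, Kcnk3 and Phka1 in each heart of CAC, NCAC and Con at weeks 6 and 8; lines are medians and the open diamond is CAC week 8 replicate 3. The CAC hearts of week 8 lie below all CAC hearts of week 6 in every panel but Myh6, where replicate 3 of each week overlaps.

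Actc1, the cardiac alpha-actin, varied more among the hearts of week 8. It had 5431 to 8698 TPM at week 6, and at week 8 a lowest value of 1723, a median of 3451 and a highest of 8074 TPM, the last in replicate 3. The log2 difference was -0.88 ± 0.32 (adjusted p = 0.446), and it fell by 1.07 without replicate 3 (adjusted p = 0.0441). Mhrt, a long noncoding RNA from the Myh6 locus that overlaps it on the other strand, fell by 0.83 without replicate 3 (28.2 to 46.8 TPM at week 6, 14.3 to 34.2 TPM in the 6 hearts). The library kit marks strand, but whether the counting used it is not given in the sources used here, so its reads may not be separable from Myh6.

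Kcnk3, the potassium channel TASK-1, which carries a background potassium current, showed the smallest adjusted p in the test against Con. It had 76.8, 81.5, 83.8, 85.6 and 86.6 TPM at week 6, and a lowest value of 56.7, a median of 62.5 and a highest of 71.6 TPM at week 8. Replicate 3, at 61.1 TPM, lay among its group. The log2 difference was -0.39 ± 0.07 (adjusted p = 0.212), and Kcnk3 fell by 0.38 without replicate 3 (adjusted p = 0.0310). In Con the level was 71.4 to 84.2 TPM at week 6 and 80.6 to 128 TPM at week 8. Earlier CAC hearts had 85.7 to 127 TPM at week 2 and 58.3 to 102 TPM at week 4, the latter overlapping CAC week 8. The change in CAC was lower than in Con by 0.73 ± 0.12 (adjusted p = 0.0155), with the Con mean itself 0.35 higher at week 8, and the difference from the change in NCAC was -0.57 (adjusted p = 0.129). The call against Con was lost when CAC week 6 replicate 4 or 5, Con week 6 replicate 3 or Con week 8 replicate 4 was left out (adjusted p up to 0.0534), with a replicate block (0.0555) and on all 62 libraries (0.999). Of 30 ion channel genes tested, Kcnk3 was the only one whose ranges did not overlap (0.702% of all genes on the lower side). Of the 30, 4 had an unadjusted p under 0.05 and were lower (3.70% of all genes), and the median was -0.05. Without replicate 3, Kcnk3 fell while Kcna5, a voltage-gated potassium channel, rose by 0.34 (adjusted p = 0.0328).

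Calcium handling was mixed. Of 25 genes, 17 lay on the lower side with 12 hearts (32.9% of all genes), and the median was -0.05. At an unadjusted p under 0.05, 6 were lower (3.70% of all genes). Without replicate 3, 2 fell (0.974% of all genes). After rescaling 4 fell, beside 400 of all 12110 genes. Srl, which encodes sarcalumenin, a calcium-binding protein of the sarcoplasmic reticulum, was the one gene of the list with separate ranges: 292 to 350 TPM at week 6 and 139 to 287 TPM at week 8 (log2 difference -0.64, adjusted p = 0.364). It fell by 0.72 without replicate 3 (adjusted p = 0.0328), and Casq2, the calcium store protein calsequestrin, fell by 0.51 (adjusted p = 0.0470). Jph2, which ties the store to the surface membrane, had 178 to 213 TPM at week 6 and 107 to 197 TPM at week 8 (log2 difference -0.50, adjusted p = 0.364). Tmem38a, the store's TRIC-A cation channel, had 274 to 316 TPM at week 6 and 196 to 249 TPM at week 8, with no overlap (log2 difference -0.36, adjusted p = 0.353). It had been at 310 to 360 TPM in Con week 6 and 329 to 376 TPM in Con week 8.

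Nuclear-encoded genes of the respiratory chain lay on the lower side by small amounts, and none passed the test with all 12 hearts. All 74 nuclear-encoded respiratory chain genes lay on the lower side with 12 hearts, beside 32.9% of all genes. Of these, 62 had an unadjusted p under 0.05, and the ranges of 27 did not overlap, beside 3.70% and 0.702% of all genes. Their log2 differences ran from -0.35 (Cox7a1) to -0.05 (Cox6a2) with a median of -0.19. Without replicate 3, 16 fell (0.974% of all genes) and none rose. After rescaling by the median of ratios 57 fell without it, beside 400 of all 12110 genes. That scaling placed the median of all genes at 0.01.

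Ndufs3, a core subunit of complex I, had 255, 266, 267, 268 and 271 TPM at week 6, and a lowest value of 195, a median of 218 and a highest of 250 TPM at week 8 (log2 difference -0.28 ± 0.06, adjusted p = 0.364). Uqcrc1, a core subunit of complex III, ran from 405 to 421 TPM at week 6 and from 304 to 379 TPM at week 8 (log2 difference -0.26, adjusted p = 0.364). Atp5a1, the alpha subunit of ATP synthase, ran from 2380 to 2547 TPM and from 2041 to 2244 TPM. Atp5g3, its membrane ring subunit, ran from 867 to 1003 TPM and from 665 to 874 TPM, overlapping only through replicate 3. Without replicate 3 all 4 fell, by 0.21 to 0.32, with adjusted p between 0.0328 and 0.0357. The week 6 hearts spread little in these genes, and in Ndufs3, Uqcrc1 and Atp5a1 all 7 of week 8, replicate 3 included, lay under their lower edge. None of the 4 passed the test of the change in CAC against the change in Con with 32 libraries (log2 differences of -0.19 to -0.32, adjusted p of 0.196 to 0.715).

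The 13 mitochondrially encoded respiratory chain genes lay near all genes in value. With 12 hearts 10 lay on the higher side, beside 67.1% of all genes, and none had an unadjusted p under 0.05. Their median was 0.03, beside 0.05 over all genes. Without replicate 3, 9 lay on the higher side, beside 74.6% of all genes, none was called, and the median was 0.02. With 12 hearts the list median was -0.02 after rescaling, so its sign depends on the scaling. mt-Nd4, a complex I subunit, ran from 26878 to 28964 TPM at week 6 and from 26972 to 33835 TPM at week 8.

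The citrate cycle and the breakdown of branched-chain amino acids and ketone bodies also lay on the lower side. Of 35 genes, 34 lay there (32.9% of all genes), 20 had an unadjusted p under 0.05 (3.70%), and 6 had separate ranges (0.702%; Suclg1, Fh1, Mdh1, Got2 and Pdha1 among them), with a median of -0.16. Got2, the mitochondrial aspartate aminotransferase, had 508, 519, 533, 551 and 583 TPM at week 6 and 422 to 489 TPM at week 8 with a median of 450 (log2 difference -0.26, adjusted p = 0.353). Mdh1, cytosolic malate dehydrogenase, ran from 1498 to 1603 TPM and from 1056 to 1361 TPM, beside 1291 to 1399 TPM in Con week 6 and 1147 to 1405 TPM in Con week 8. Cs, citrate synthase, had 724 to 826 TPM at week 6, and 531 to 768 TPM at week 8 with replicate 3 highest. Bdh1, which oxidises the ketone body beta-hydroxybutyrate, ran from 103 to 134 TPM and from 61.002 to 108 TPM, a log2 difference of -0.47 (adjusted p = 0.364), the lowest of the list. Without replicate 3, 10 of the 35 fell (0.974% of all genes) and none rose. After rescaling 19 fell, beside 400 of all 12110 genes. Slc25a4, the ADP/ATP carrier of the inner membrane, had 3230 to 3666 TPM at week 6 and 2575 to 3159 TPM at week 8, and Letm1, an ion exchanger of that membrane, 13.7 to 14.5 TPM and 10.9 to 12.3 TPM. Neither pair of ranges overlapped (log2 differences -0.30 and -0.25, adjusted p = 0.326 and 0.353). For Slc25a4 every CAC heart of week 6 lay above the 2445 to 2877 TPM of Con week 6, and week 8 overlapped the 2305 to 2839 TPM of Con week 8. The part of the lower mitochondrially encoded share of CAC week 6 in the levels of Slc25a4 and Mdh1 was not tested.

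Fatty acid genes also lay mostly on the lower side. Of 44 tested, 34 lay on the lower side (32.9% of all genes), 17 were lower (3.70%) and 1 higher at an unadjusted p under 0.05, and 2 had separate ranges (0.702%; Slc25a20, the carnitine carrier, and Echs1), with a median of -0.15. Without replicate 3, 1 fell and 1 rose (0.974% and 2.86% of all genes). After rescaling 7 fell and 1 rose, beside 400 and 232 of all 12110 genes. Ppargc1b, a coactivator of mitochondrial genes, ran from 8.89 to 12.6 TPM at week 6 and from 4.38 to 9.54 TPM at week 8, and fell by 0.58 without replicate 3 (adjusted p = 0.0482). Ucp2, an uncoupling protein also made by macrophages, ran from 10.5 to 21.8 TPM and from 14.1 to 24.6 TPM, and rose by 0.68 without replicate 3 (adjusted p = 0.0335). Dgat2, the last enzyme of triglyceride synthesis, ran from 118 to 178 TPM and from 75.6 to 129 TPM, a log2 difference of -0.48 (adjusted p = 0.366). Pdk4, a kinase that holds back glucose oxidation and rises in fasting, had 83.2 to 190 TPM and 56.6 to 124 TPM, and Ucp3 had 5.71 to 27.3 TPM and 4.42 to 16.5 TPM. Neither passed the test in either fit (adjusted p of 0.0862 to 0.530).

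In glycolysis and glucose use, 28 of 33 genes lay on the lower side, 12 had an unadjusted p under 0.05 and were lower (32.9% and 3.70% of all genes), and the median was -0.12. Phka1, the muscle regulatory subunit of phosphorylase kinase, which starts glycogen breakdown, had 17.96, 18.8, 20.2, 21.4 and 23.1 TPM at week 6. At week 8 it had a lowest value of 12.6, a median of 15.3 and a highest of 16.2 TPM (log2 difference -0.44 ± 0.08, adjusted p = 0.212), with no overlap and with replicate 3 at 13.7 TPM. Con and NCAC hearts spread over 14.1 to 28.9 TPM in the same weeks. Without replicate 3, Phka1, Hk2 (hexokinase), Eno3 (muscle enolase) and Pkm (pyruvate kinase) fell, by 0.23 to 0.49, beside 0.974% of all genes. After rescaling 8 genes of the list fell, beside 400 of all 12110 genes. In Hk2, Eno3 and Pkm replicate 3 was the highest of the 12 hearts.

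**Figure D3:**
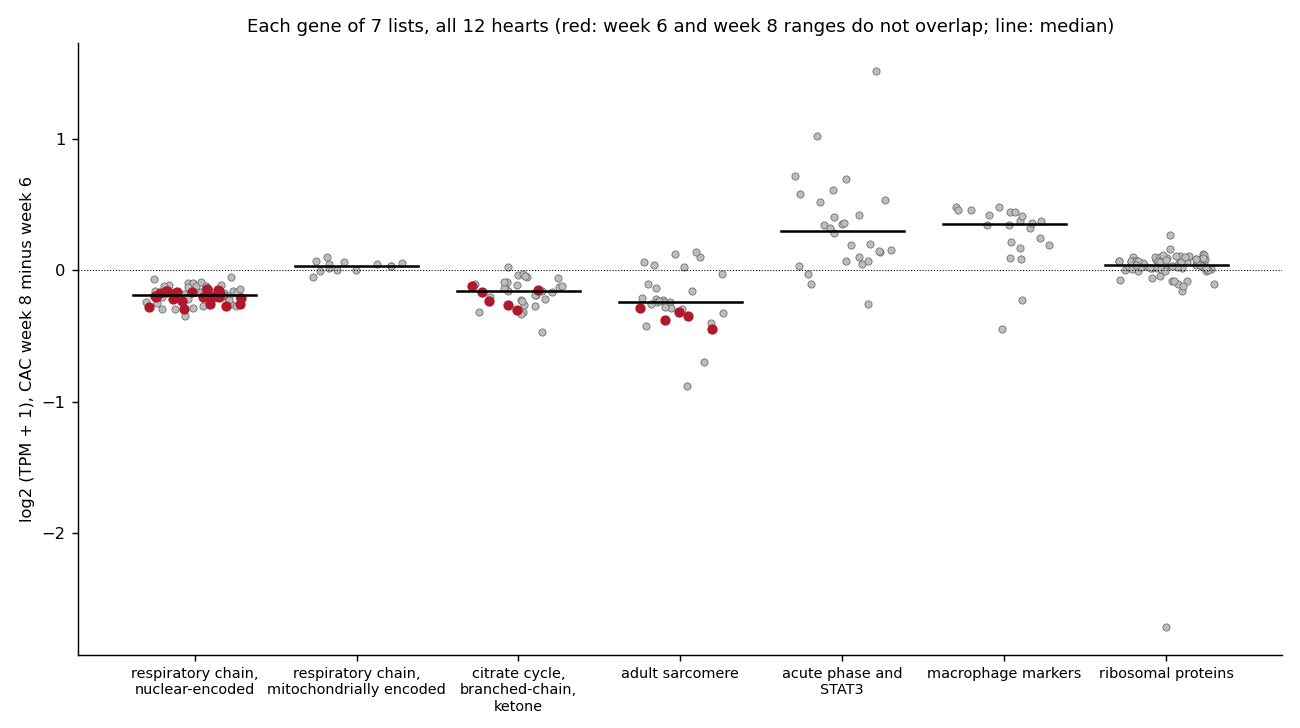
Log2 (TPM + 1) difference between CAC weeks 6 and 8 with all 12 hearts (vertical axis) for each gene of 7 lists; red points are genes whose week 6 and week 8 ranges do not overlap and lines are medians. All nuclear-encoded respiratory chain genes lie under 0 around a median of -0.19 and the mitochondrially encoded ones lie around 0.03; the low point among ribosomal proteins is Rps26, listed at 0 in at least 1 heart of week 8.

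In acute-phase and STAT3 genes replicate 3 differed from the other hearts of its week. Of 28 tested, 25 lay on the higher side with 12 hearts (67.1% of all genes), but only 1 had an unadjusted p under 0.05 (5.56%) and none had separate ranges (median 0.30). Without replicate 3, 10 rose (2.86% of all genes) and none fell, with a median of 0.51: Il6ra, Osmr, Serpina3n, Serpina3m, Serpina3i, Serpina3g, Hp, Lbp, C3 and Cebpd. After rescaling 6 of the 28 rose, beside 232 of all 12110 genes. The Serpina3 genes are close paralogs, and how reads were shared among them is not given in the sources used here.

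Serpina3n, a protease inhibitor secreted in the acute phase, had 423, 716, 797, 1159 and 1767 TPM at week 6. At week 8 replicate 3 had 54.9 TPM and the other 6 hearts had 1665 to 2841 TPM. Con hearts had 1.89 to 5.29 TPM in those weeks, so replicate 3 was above every control heart and below every CAC heart of week 6. The log2 difference was 0.53 ± 0.82 with 12 hearts (adjusted p = 0.856), and Serpina3n rose by 1.28 without replicate 3 (adjusted p = 0.0379). Hp, haptoglobin, which binds free haemoglobin, had 7.30 to 18.001 TPM at week 6, 2.58 TPM in replicate 3 and 12.7 to 74.2 TPM in the other 6, and rose by 1.47 without replicate 3 (adjusted p = 0.0481). Lbp, which binds bacterial lipopolysaccharide, rose by 0.91 (2.31 to 7.59 TPM at week 6, 7.18 to 13.9 TPM in the 6 hearts).

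Osmr, the oncostatin M receptor, whose ligand is of the interleukin-6 family, had 14.5, 18.4, 20.1, 20.2 and 21.1 TPM at week 6. Replicate 3 had 7.30 TPM and the other 6 hearts of week 8 had 22.5 to 25.9 TPM, all above week 6. It rose by 0.37 without replicate 3 (adjusted p = 0.0379), and its log2 difference with 12 hearts was 0.14. Socs3, the feedback inhibitor of JAK and STAT3, ran from 30.2 to 65.7 TPM at week 6 and from 52.9 to 109 TPM in the 6 hearts, with 9.18 TPM in replicate 3, and did not pass the test (log2 difference 0.59 without replicate 3, adjusted p = 0.125). Lcn2, a siderophore-binding protein of the acute phase, ran from 40.3 to 292 TPM at week 6, from 209 to 342 TPM in the 6 hearts and stood at 3.22 TPM in replicate 3 (log2 difference 1.26 without it, adjusted p = 0.0660). Saa3, the serum amyloid A made outside the liver, ran from 2.63 to 90.9 TPM at week 6 and from 16.1 to 131 TPM in the 6 hearts, and did not pass either (adjusted p = 0.113 without replicate 3). Mt2, a metal-binding metallothionein, had 678 to 1899 TPM, then 194 TPM in replicate 3 and 952 to 2800 TPM in the others (adjusted p = 0.0788 without it).

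The 12 genes with the largest rises without replicate 3 were chosen after their values were seen. They are Serpina3h (1.82), Hp (1.47), Serpina3m (1.36), Card14 (1.35), Serpina3n (1.28), C7 (1.26), Serpina3i (1.04), Sema5a (1.03), Csrnp1 (0.96), Mmp3 (0.95), Sds (0.93) and Lbp (0.91), each a log2 difference. In all 12 but Serpina3h replicate 3 was the lowest of the 12 hearts. Mmp3, stromelysin, a protease of the extracellular matrix, had 10.8, 22.2, 28.2, 28.6 and 32.7 TPM at week 6, 5.42 TPM in replicate 3 and 41.0 to 53.5 TPM in the other 6 hearts. C7, a terminal complement component, had 7.40 to 16.3 TPM at week 6, 4.53 TPM in replicate 3 and 21.9 to 35.6 TPM in the others.

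**Figure D4:**
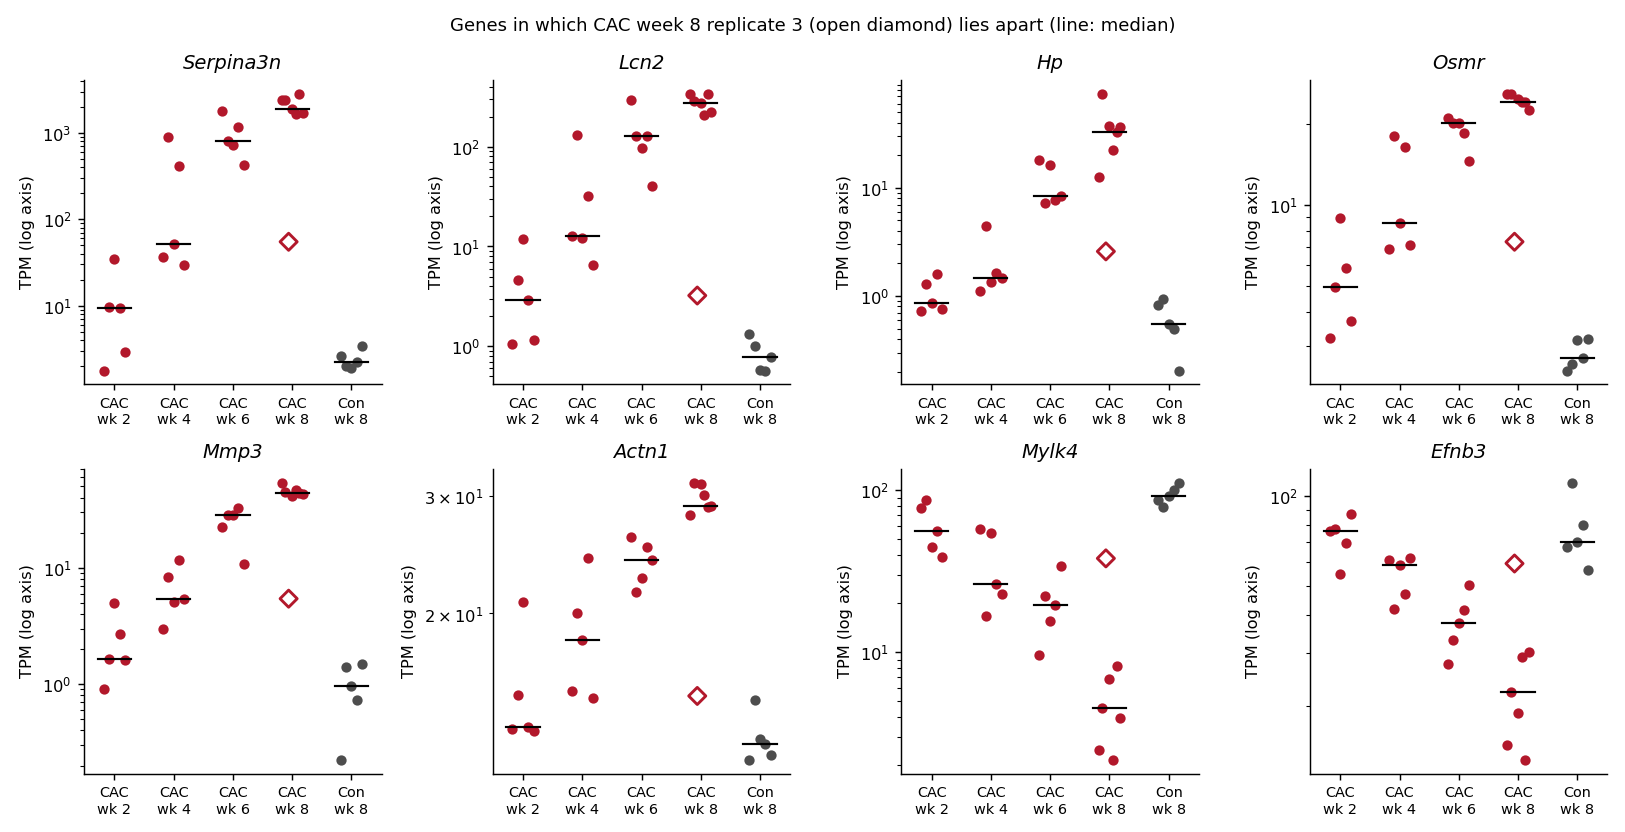
TPM (log axis) of Serpina3n, Lcn2, Hp, Osmr, Mmp3, Actn1, Mylk4 and Efnb3 in each CAC heart at weeks 2, 4, 6 and 8 and in Con hearts at week 8; lines are medians and the open diamond is CAC week 8 replicate 3. In these genes replicate 3 lies among the CAC hearts of weeks 2 and 4, while the other 6 hearts of week 8 lie on the far side of the week 6 median.

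The 12 largest falls without replicate 3, chosen in the same way, were Mylk4 (-1.89), Actc1 (-1.07), Tuba4a (-0.88), Efnb3 (-0.84), Mhrt (-0.83), Fhl2 (-0.82), Myh6 (-0.76), Srl (-0.72), Lrrc4b (-0.71), Tuba8 (-0.68), Rom1 (-0.67) and Klhdc8a (-0.64). Mylk4, a myosin light chain kinase of striated muscle, had 9.58, 15.6, 19.7, 22.2 and 33.8 TPM at week 6. Replicate 3 of week 8 had 37.9 TPM and the other 6 hearts had 2.16 to 8.24 TPM, while Con hearts of week 8 had 78.2 to 111 TPM. The log2 difference was -1.48 ± 0.52 with 12 hearts (adjusted p = 0.446), and Mylk4 fell by 1.89 without replicate 3 (adjusted p = 0.0310). Fhl2, a LIM protein that binds titin and calcineurin, had 1011 to 1391 TPM at week 6, 1160 TPM in replicate 3 and 412 to 813 TPM in the other 6 hearts. Efnb3, an ephrin ligand, had 27.6 to 50.5 TPM at week 6, 59.5 TPM in replicate 3 and 13.2 to 30.2 TPM in the other 6.

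Against the change in Con, and without replicate 3, 15 genes rose further in CAC (0.121% of 12418) and 42 fell further (0.338%); against NCAC 98 rose further (0.789%) and 51 fell further (0.411%). Among the genes named above, Kcnk3, Myh6, Mhrt, Tnnc1, Actn2, Tmem38a, Got2, Cs, Srl, Fhl2, Mylk4, Tuba4a and Tuba8 fell further in both tests, and Serpina3m, Card14 and Sema5a rose further in both. Many of these genes were named for their change in the same CAC libraries, so passing here is partly selected for. These fits without replicate 3 were not repeated with a further library left out. Serpina3n passed against Con (1.51, adjusted p = 0.0499) and not against NCAC (0.96, adjusted p = 0.150). Tnni3 passed against NCAC (-0.37, adjusted p = 0.0211) and not against Con (-0.29, adjusted p = 0.0973).

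Stress and stretch genes of the myocyte were mixed. Of 26 tested, 16 lay on the higher side (67.1% of all genes), and the median was 0.06. At an unadjusted p under 0.05, 2 were higher and 5 lower (5.56% and 3.70% of all genes). Over all genes, 2.86% rose and 0.974% fell without replicate 3. Without replicate 3, Mybpc2, the fast skeletal myosin-binding protein C, rose by 0.68 (41.0 to 65.5 TPM at week 6, 72.1 to 114 TPM in 6 hearts, 22.001 TPM in replicate 3), and Actn1, the nonmuscle alpha-actinin, rose by 0.31. Ankrd2, an ankyrin repeat protein of stretched muscle, was the exception in which replicate 3 went with the rest: 2.28 to 4.14 TPM at week 6 and 0.433 to 2.04 TPM at week 8, with replicate 3 lowest. It fell by 0.56 without replicate 3 (adjusted p = 0.0394), as did Fhl2 and Mylk4. The natriuretic peptides, secreted by strained myocytes, overlapped: Nppa ran from 139 to 2192 TPM at week 6 and from 68.2 to 1530 TPM at week 8, and Nppb from 289 to 575 TPM and from 257 to 781 TPM. Ankrd1, another stretch-responsive ankyrin repeat protein, ran from 4229 to 8210 TPM and from 2528 to 10542 TPM, and Myh7, the slow beta myosin heavy chain, from 402 to 463 TPM and from 305 to 693 TPM. None of these 4 passed in either fit (adjusted p of 0.0710 to 0.943). Acta1, skeletal alpha-actin, had 53.8 to 188 TPM at week 6, and 6 of 7 hearts of week 8 had 26.8 to 76.2 TPM while replicate 5 had 235 TPM (log2 difference -1.05, adjusted p = 0.507). Casq1, the skeletal calsequestrin, did not pass (-0.37, adjusted p = 0.622).

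Most macrophage markers lay higher at week 8. Of 22 tested, 20 lay on the higher side (67.1% of all genes), 8 had an unadjusted p under 0.05 and were higher (5.56%), and the median was 0.35. Over the same weeks the median was 0.18 in Con and -0.14 in NCAC. Without replicate 3, 7 rose (Csf1r, Mrc1, Cd163, F13a1, C1qa, C1qb and Lyz2, beside 2.86% of all genes) and none fell. Lyz2, lysozyme, had 178, 203, 204, 208 and 271 TPM at week 6, and a lowest value of 210 (replicate 3), a median of 267 and a highest of 315 TPM at week 8 (log2 difference 0.36, adjusted p = 0.414). Cd68, a lysosomal protein of macrophages, had 9.51 to 13.9 TPM and 10.7 to 23.4 TPM (adjusted p = 0.489). Mrc1, the mannose receptor, had 16.2 to 32.1 TPM at week 6, 14.0 TPM in replicate 3 and 32.8 to 46.3 TPM in the other 6, and Cd163, the haemoglobin scavenger receptor, had 13.5 to 24.3, 7.97 and 24.8 to 33.1 TPM in that order. Both rose without replicate 3, by 0.68 and 0.66. Retnla, a marker of resident macrophages, went the other way in value: 1.73 to 6.46 TPM at week 6, 11.96 TPM in replicate 3 and 0.737 to 4.11 TPM in the other 6, against 10.2 to 27.2 TPM in Con week 8 (adjusted p = 0.115 without replicate 3). Ccl8, a monocyte chemokine, had 61.2 to 136 TPM at week 6 and 31.6 to 359 TPM at week 8, and did not pass.

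The 12 genes with the smallest p on the higher side with all 12 hearts did not pass the test there, and are given as values. They are Lsm10, Prrg3, Lilrb4a, Hcls1, Cnrip1, Ctla2b, Tlr2, Jam3, Il3ra, Gimap5, Tlr13 and Gbp9, with adjusted p of 0.212 to 0.364 and log2 differences of 0.29 to 0.54. Lilrb4a, an inhibitory receptor of myeloid cells, had 6.36, 7.88, 8.54, 9.07 and 9.26 TPM at week 6, and a lowest value of 10.03 (replicate 3), a median of 11.9 and a highest of 15.4 TPM at week 8. Hcls1, a signalling adaptor of blood cells, had 4.40 to 7.05 TPM and 7.18 to 9.83 TPM, and Tlr2, a receptor for bacterial lipoproteins, 1.62 to 2.39 TPM and 2.42 to 3.43 TPM. The ranges of these 3 did not overlap. In Con at weeks 6 and 8, Lilrb4a had 3.17 to 4.68 and 3.89 to 6.05 TPM. There Hcls1 had 3.79 to 5.18 and 5.07 to 7.10 TPM, and Tlr2 had 0.993 to 2.11 and 1.61 to 1.99 TPM. Tlr13, a receptor for bacterial ribosomal RNA, had 1.21 to 2.22 TPM and 1.73 to 3.50 TPM. Lsm10, a component of the U7 particle of histone mRNA processing, had 10.7 to 13.2 TPM and 14.2 to 15.9 TPM. For Lsm10 the low group was week 6, since CAC hearts averaged 14.8 TPM at week 2 and 14.1 TPM at week 4.

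The corresponding 12 on the lower side are Tnni3, Tnnc1, Kcnk3, Phka1, Myh6, Zfp27, Slc25a4, Tmem38a, Letm1, Myl3, Actn2 and Got2, with adjusted p of 0.212 to 0.353 and log2 differences of -0.25 to -0.70. All but Myh6 had separate ranges. Zfp27, a zinc finger protein, had 4.46 to 5.35 TPM at week 6 and 2.41 to 4.24 TPM at week 8. The other 11 are contractile, channel, glycogen or mitochondrial genes described above, and replicate 3 lay below every week 6 heart in each of them but Myh6.

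Other immune lists also lay mostly on the higher side, as did 67.1% of all genes, with 5.56% of all genes higher at an unadjusted p under 0.05 and 2.86% called higher without replicate 3. Of 6 neutrophil markers tested, all lay on the higher side and 5 had an unadjusted p under 0.05 (median 0.48), and none rose without replicate 3. Their median over the same weeks was 0.29 in Con and 0.16 in NCAC. Retnlg, a secreted neutrophil protein, had 0.993 to 3.57 TPM at week 6 and 2.33 to 5.96 TPM at week 8. The other 7 neutrophil genes were under the filter. Of 3 B and plasma cell markers tested, Ighg2c, an immunoglobulin heavy chain constant region, had separate ranges, with 1.05 to 2.14 TPM at week 6 and 2.32 to 4.56 TPM at week 8 (log2 difference 0.65, adjusted p = 0.364). It rose by 0.71 without replicate 3 (adjusted p = 0.0442), and none of the 3 rose after rescaling. Of 29 complement and coagulation genes, 26 lay on the higher side, and 7 rose without replicate 3, 4 of them also macrophage or acute-phase genes already named, with C4b (0.77), C4a (0.60) and Vwf (0.30) besides. Of 35 interferon response genes, 31 lay on the higher side and 8 had an unadjusted p under 0.05 (median 0.20), and Ifi27l2a (0.88), Oas2 (0.59) and Bst2 (0.42) rose without replicate 3, of which only Ifi27l2a passed after rescaling (adjusted p = 0.0473, against 0.0505 and 0.0716). Con hearts had a higher interferon median over the same weeks (0.24) and NCAC hearts a lower one (-0.25). Of 25 NF-kB, cytokine and chemokine genes, 23 lay on the higher side, and Nfkbiz, a nuclear inhibitor of kappa B, rose by 0.36 without replicate 3 (adjusted p = 0.0359). The median of that list was 0.28 in CAC with 12 hearts, 0.19 in Con and -0.02 in NCAC.

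Glucocorticoid targets and immediate-early genes, the transcription factors that cells switch on within minutes of a stimulus, had medians of 0.32 and 0.31. On the higher side lay 67.1% of all genes. Of 25 glucocorticoid targets, 20 lay on the higher side, 4 were higher and 1 lower at an unadjusted p under 0.05 (5.56% and 3.70% of all genes), and Sgk1 (0.47), Dusp1 (0.66) and Cebpd (0.58) rose without replicate 3. Of 23 immediate-early genes, 22 lay on the higher side, and Klf2 (0.61), Maff (0.51) and Dusp1 rose without replicate 3, with 2.86% of all genes. After rescaling 2 rose in each list, beside 232 of all 12110 genes. Fkbp5, a glucocorticoid target that dampens the receptor, had 16.2 to 47.4 TPM at week 6, 5.01 TPM in replicate 3 and 22.8 to 57.0 TPM in the other 6, and did not pass (adjusted p = 0.141 without replicate 3). Per1, a clock gene that glucocorticoids also raise, had 17.9 to 35.2 TPM and 17.2 to 53.4 TPM. None of 20 clock genes had an unadjusted p under 0.05 with 12 hearts, and none passed without replicate 3.

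Endothelial, fibroblast and matrix genes were higher in value in CAC and in Con alike. Over all genes, 67.1% lay on the higher side with 12 hearts and 2.86% rose without replicate 3. Of 18 endothelial markers, 17 lay on the higher side (median 0.20), beside a median of 0.18 in Con. Egfl7 (0.31), Esam (0.36) and Vwf rose without replicate 3. After rescaling 2 endothelial markers rose and 1 fell, beside 232 and 400 of all 12110 genes. All 37 extracellular matrix genes lay on the higher side with a median of 0.28, beside 0.30 in Con and -0.09 in NCAC, and Mmp3 alone passed without replicate 3. All 14 fibroblast markers lay on the higher side and none passed. Aplnr, the apelin receptor of endothelium, had 1.03 to 3.96 TPM at week 6, 14.0 TPM in replicate 3 and 0.509 to 4.47 TPM in the other 6, against 16.3 to 33.7 TPM in Con week 8, so its low level was already present at week 6. Its ligand Apln was under the filter.

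Several programs tied to wasting elsewhere gave few or no calls. Fbxo32 and Trim63, the ubiquitin ligases atrogin-1 and MuRF1 of muscle atrophy, ran from 37.5 to 64.7 TPM and from 136 to 190 TPM at week 6, and from 28.6 to 95.1 TPM and from 110 to 308 TPM at week 8. Their log2 differences were -0.01 (adjusted p = 0.996) and 0.09 (adjusted p = 0.912), and no member of the 24-gene atrophy list passed without replicate 3 (median 0.10 with 12 hearts). The spread of these 2 genes was wider at week 8, and the lowest and highest hearts of week 8 lay outside the week 6 range in both. Of 78 ribosomal protein genes none had an unadjusted p under 0.05, and the median was 0.04, or -0.01 after rescaling. Rpl3, the general ribosomal protein, had 62.7 to 98.6 TPM and 58.1 to 131 TPM, and Rpl3l, its striated muscle paralog, had 221 to 243 TPM and 161 to 229 TPM, falling by 0.33 without replicate 3 (adjusted p = 0.0379). Of 27 ATF4 and amino acid genes, Slc3a2, the heavy chain of amino acid transporters, rose by 0.33 without replicate 3 (36.2 to 48.4 TPM, 50.3 to 57.1 TPM in 6 hearts, 18.6 TPM in replicate 3). Gdf15, a hormone that suppresses appetite, had 0.415 to 3.56 TPM at week 6 and 0.725 to 4.70 TPM at week 8, and did not pass in either fit (adjusted p = 0.0602 without replicate 3). In the metallothionein and oxidative stress list of 29 genes, Ftl1, ferritin light chain, rose by 0.44, and Sod2, the mitochondrial superoxide dismutase, fell by 0.37 without replicate 3. Over all genes, 2.86% rose and 0.974% fell without replicate 3, so 1 rise in a list of 27 or 29 genes is near that share.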

How the data were processed

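Heart RNA was sequenced with a stranded mRNA kit, per the labels' protocols. The authors deposited 1 table of TPM (a length-scaled level) with 47643 gene symbols and 62 libraries, of which 24270 genes are at 0 throughout. The build is mm10, per the submitters' processing notes; the aligner, counter, annotation and strand setting are not given in the sources used here.

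TPM was analysed as log2(TPM + 1) with limma 3.58.1 (R 4.3.3, linear models with an intensity trend). A gene entered where 5 or more fitted libraries had at least 1 TPM, with Benjamini-Hochberg adjustment over all genes tested and a threshold of 0.05. Fold changes are on the log2(TPM + 1) scale, which understates changes of low genes. CAC weeks 6 and 8 were fitted alone. Differences between arms were fitted on the 32 libraries of weeks 6 and 8. "Ranges separate" means that no library of one week reaches the other week's range. Fits were tested on simulated data.

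The genes and lists were chosen with earlier results of these data known. Named genes are the 12 with the largest called rise and fall or, where fewer are called, the smallest p with at least 2 TPM in one group, plus up to 4 per list by p, those called where 5 or fewer are, and a fixed panel of 29. RefSeq promoters (GRCm38.p6) were matched by symbol, with only the first listed for each symbol searched. The NRF1 motif was searched in 3 forms in turn, its share moving with the form. Shares are given for a single form among these 3. The alternatives tried are other pseudocounts, filters, scalings, weights, sample sets, a replicate block and leaving out each library. Values of some genes are not reported here.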

Additional observations from a re-analysis of the deposited data

Results flagged for a closer look

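Single hearts far from the rest of their week were sought in the named genes: 31 of 226 gene and group combinations (13.7%) had one, and 22 of the 31 were replicate 3 of CAC week 8. Chance gives about 1 in 20 in groups of unselected values, but many of these genes were chosen by their change without that heart, so the share is a count and is not read against that rate. That heart was low for Serpina3n (54.9 TPM, the next at 1665), Mmp3 (5.42), Lcn2 (3.22), Osmr (7.30), Cd163 (7.97), Mrc1 (14.0), Actn1 (15.1), Kcna5 (12.8), Cebpd (16.9), Klf2 (18.6), Egfl7 (30.9), Esam (30.6), Vwf (5.51) and Slc3a2 (18.6 TPM, the next at 50.3). It was high for Mylk4 (37.9 TPM, the next at 8.24), Efnb3 (59.5), Rom1 (29.3), Klhdc8a (7.40), Retnla (11.96), Aplnr (14.0), Hk2 (82.6) and Eno3 (1159 TPM, the next at 706).

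The other hearts far from their week were spread over 6 libraries. At week 8, replicate 6 was low for Actn2 (608 TPM, the next at 660) and replicate 5 high for Acta1 (235 TPM, the next at 76.2). At week 6, replicate 3 was low for Myh6 (5352 TPM, the next at 7446) and high for Bdh1 (134) and Gdf15 (3.56), replicate 1 was high for Saa3 (90.9 TPM, the next at 15.7) and Ucp2 (21.8), replicate 5 was high for Tmem38a (316) and replicate 2 low for Ndufs3 (255).

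The change from week 6 to week 8 differed between arms for 3 genes by the test of the difference itself: Kcnk3 (-0.73) and Myh6 (-0.86) between CAC and Con, and Tnnc1 (-0.45) between CAC and NCAC, each a log2 difference of changes.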

How the results depend on the processing

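With all 12 hearts, no call in either direction held under a pseudocount of 0.1, no filter, a stricter filter of 5 TPM, rescaling, 1 array weight per group or a replicate block (0 higher and 0 lower). Calls appeared with array quality weights (285 higher, 121 lower), with mitochondrially encoded and haemoglobin genes removed (2 higher), on all 62 libraries (1 higher), on 61 without Con week 4 replicate 2 (77 and 141), on 32 libraries (1 and 42), and between 0 and 346 higher and 0 and 118 lower over leaving out each replicate, those being without week 8 replicate 3. Without replicate 3 and rescaled there were 232 higher and 400 lower.

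Without replicate 3, the pseudocount and the stricter filter kept both counts within 1.5 times. No filter gave 0 and 0, rescaling 400 lower, removal of mitochondrially encoded and haemoglobin genes 1031 higher, array weights 882 and 204, 31 libraries 1010 and 280, and the replicate block 49 and 15. Leaving out a further replicate gave 0 to 640 higher and 0 to 138 lower. These alternatives were chosen after the data were seen. Replicate numbers do not pair the hearts: same-numbered deviations correlated at 0.40, -0.06, 0.05, -0.03 and 0.02.

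For CAC against Con, 2 lower became 1 without a filter and 0 with the replicate block or on all 62 libraries. Against NCAC, 1 lower became 0 without a filter, after rescaling, with the block and on 62. Without replicate 3 and rescaled the counts were 54 higher and 158 lower against Con, and 207 and 359 against NCAC, also chosen after the data were seen. Leaving out each replicate gave 0 to 15 higher and 0 to 42 lower against Con, and 0 to 98 and 0 to 51 against NCAC. Con alone gained 1 higher call after rescaling and 0 to 2 over its replicates.

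Signs turned for Fbxo32 (0.039 with 12 hearts and 0.00974 without replicate 3, mitochondrially encoded and haemoglobin genes removed) and mt-Nd4 (-0.00521 rescaled, without replicate 3). Of the named genes' values over leaving out each replicate with 12 hearts, 1262 kept direction and side of the threshold, 85 newly passed it and 9 changed sign; without replicate 3 the numbers were 663, 19 and 10, and a further 551 lost the threshold. Over leaving out each replicate the log2 difference ran from -0.15 to 0.13 for Fbxo32 (12 hearts), from -0.33 to 0.77 for Nppa (12 hearts), from -0.057 to 0.19 for Trim63 (12 hearts), from -0.13 to 0.42 for Aplnr (12 hearts), from -0.18 to 0.16 for Fbxo32 (without replicate 3), from -0.32 to 0.055 for Aplnr (without replicate 3) and from -0.33 to 0.88 for Nppa (without replicate 3). The cause was not tested. TPM holds no depth, so counting error is unknown.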

Other observations

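Rps26, a protein of the small ribosomal subunit, fell into 3 separate levels across the 62 libraries: 4 had 0 to 0.293 TPM, 13 had 148 to 185 TPM and 45 had 257 to 502 TPM. The 4 were CAC week 8 replicates 2 and 4, Con week 8 replicate 3 and NCAC week 2 replicate 5. The 5 hearts of CAC week 6 had 364 to 495 TPM and the other 5 hearts of CAC week 8 had 257 to 502 TPM. H2-Ea-ps, a class II histocompatibility pseudogene, was listed at 0 in CAC week 8 replicate 3 and had 3.75 to 40.1 TPM in the other 11 CAC hearts of weeks 6 and 8. Both genes were singled out after their values were seen.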
